A study of Mus musculus with 28 samples.

Results

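The 10 genes described here belong to the brain microvasculature and were followed through whole mouse brains that had been cut into consecutive fractions. The 8 endothelial genes were Cldn5, Pecam1, Slco1a4, Slc2a1, Abcb1a, Flt1, Tek and Vwf, and the 2 pericyte genes were Pdgfrb and Rgs5. They were chosen by name as known genes of these cell types, and all 10 were found among the 20660 gene symbols that could be given to array probes. Each had 1 probe, and each probe was well above background on all 28 arrays. The brains came from 3 male C57BL/6J mice aged 3 weeks for which the labels name no treatment, and each brain was sectioned in 1 plane by Transcriptome Tomography, a method that freezes the brain, slices it along 1 body axis and pools neighbouring slices. The coronal series gave 12 fractions of mouse 1, the horizontal series 6 of mouse 2 and the sagittal series 10 of mouse 3. One array was run per fraction, so no position was measured again, mouse and plane cannot be told apart, and the last coronal fraction may be wider because its label names a further fraction pooled into it.

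Blood vessels of the brain are lined by endothelial cells that tight junctions seal into the blood-brain barrier. These cells carry nutrients inward through dedicated carriers and push foreign compounds back into the blood with efflux pumps. Pericytes sit on the outer wall of the capillaries, are recruited by the growth factor PDGF-B through its receptor, and help to keep the barrier closed, while astrocytes cover both with their end-feet. Several of these genes are also used outside capillaries: Slc2a1 in astrocytes, Pecam1 in platelets and leukocytes, and Pdgfrb and Rgs5 in mural cells of larger vessels. A fraction is bulk tissue, so fewer vessels and less RNA per vessel cell cannot be told apart in any value below.

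Levels are given as log2 of the processed signal relative to the 75th percentile of the same array, so 0 is the brightness of that percentile and 1 unit is a doubling. They are compared between fractions of 1 gene and never between genes, because probes differ in brightness. The 75th percentile signal ranged from 135 (sagittal fraction 1) to 574 (coronal fraction 4), between 24822 and 34240 probes were well above background, and repeated spots of 1 probe had a median SD of 0.056 to 0.0853 log2 units on an array. Sagittal fraction 9 stood apart across the whole array. There, the 21524 probes that were well above background everywhere had a median of 0.40 below their series mean (-0.40), and the dim probes a median of 1.32 above it. The arrays lay on 4 slides. Coronal fractions 3 to 10 filled 1 of them, fractions 1 and 2 shared another with all horizontal fractions, fractions 11 and 12 shared the third with sagittal fractions 5 to 10, and sagittal fractions 1 to 4 had their own.

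The RefSeq promoter table (assembly GRCm38.p6) held an entry for 7 of the 10 genes, Cldn5, Slco1a4, Slc2a1, Flt1, Abcb1a, Tek and Rgs5. Each entry runs from 250 bases before the start of transcription to 50 bases after it. Shown are Cldn5 and Tek, which had the trends described below along the coronal series, and Flt1, Abcb1a and Slco1a4, which with Tek make up 2 of the 3 pairs of members that varied most alike. Each is written 5′ to 3′ along the gene's own strand. Capitals mark 3 short motifs searched on both strands: the ETS core GGAAG (reverse CTTCC), the TCF/LEF core CTTTG (reverse CAAAG) and the SOX core ACAAT (reverse ATTGT). ETS and SOX family factors act in endothelial cells and TCF/LEF factors carry Wnt signals, but a match is only a match of letters.
Cldn5 promoter, chr16:18776597-18776896, plus strand: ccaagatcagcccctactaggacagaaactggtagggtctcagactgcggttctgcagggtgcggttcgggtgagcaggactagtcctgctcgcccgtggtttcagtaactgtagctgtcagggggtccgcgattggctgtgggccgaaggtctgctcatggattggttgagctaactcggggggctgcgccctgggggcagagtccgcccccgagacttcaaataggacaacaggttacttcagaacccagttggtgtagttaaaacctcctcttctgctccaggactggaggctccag
Tek promoter, chr4:94739039-94739338, plus strand: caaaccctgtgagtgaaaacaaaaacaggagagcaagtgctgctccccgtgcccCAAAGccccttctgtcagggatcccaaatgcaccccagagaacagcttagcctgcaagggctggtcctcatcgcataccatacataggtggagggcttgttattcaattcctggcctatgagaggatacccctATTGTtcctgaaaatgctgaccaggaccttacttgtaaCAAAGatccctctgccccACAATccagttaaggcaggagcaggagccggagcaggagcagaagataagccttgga
Slco1a4 promoter, chr6:141856171-141856470, minus strand: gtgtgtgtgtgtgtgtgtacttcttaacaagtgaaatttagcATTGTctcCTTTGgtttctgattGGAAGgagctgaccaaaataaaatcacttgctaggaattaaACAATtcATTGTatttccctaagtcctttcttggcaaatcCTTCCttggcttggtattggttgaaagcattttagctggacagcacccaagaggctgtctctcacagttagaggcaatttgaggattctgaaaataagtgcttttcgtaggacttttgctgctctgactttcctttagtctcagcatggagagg
Flt1 promoter, chr5:147725962-147726261, minus strand: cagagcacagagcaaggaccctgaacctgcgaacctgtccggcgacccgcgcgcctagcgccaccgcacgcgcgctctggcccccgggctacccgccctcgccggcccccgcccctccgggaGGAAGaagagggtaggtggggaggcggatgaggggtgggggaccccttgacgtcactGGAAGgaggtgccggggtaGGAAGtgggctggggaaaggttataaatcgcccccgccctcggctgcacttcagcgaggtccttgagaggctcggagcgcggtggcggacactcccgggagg
Abcb1a promoter, chr5:8566841-8567140, plus strand: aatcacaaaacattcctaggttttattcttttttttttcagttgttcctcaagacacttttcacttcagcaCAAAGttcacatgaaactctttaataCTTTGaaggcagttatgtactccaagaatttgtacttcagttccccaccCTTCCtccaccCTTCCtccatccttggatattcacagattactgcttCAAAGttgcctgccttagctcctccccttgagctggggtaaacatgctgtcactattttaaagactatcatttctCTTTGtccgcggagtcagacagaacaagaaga
The ETS core was present 3 times in the Flt1 window and 2 times in each of the Slco1a4 and Abcb1a windows. The TCF/LEF core was found 4 times for Abcb1a, 2 times for Tek and 1 time for Slco1a4, and the SOX core 3 times for Slco1a4 and 2 times for Tek. None of these motifs stood in the Cldn5 window, nor in that of Slc2a1, which made the closest pair with Flt1 and is not shown. The Rgs5 window, also not shown, held the TCF/LEF and the SOX core 1 time each. Such matches are common: of 32851 promoter windows in the table, 71.4% held the ETS core, 53.9% the TCF/LEF core and 31.0% the SOX core. The GC content was 58.3% for Cldn5, 52.0% for Tek, 40.7% for Slco1a4, 70.7% for Flt1 and 40.3% for Abcb1a, beside a median of 52.7% over all windows.

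**Figure D1:**
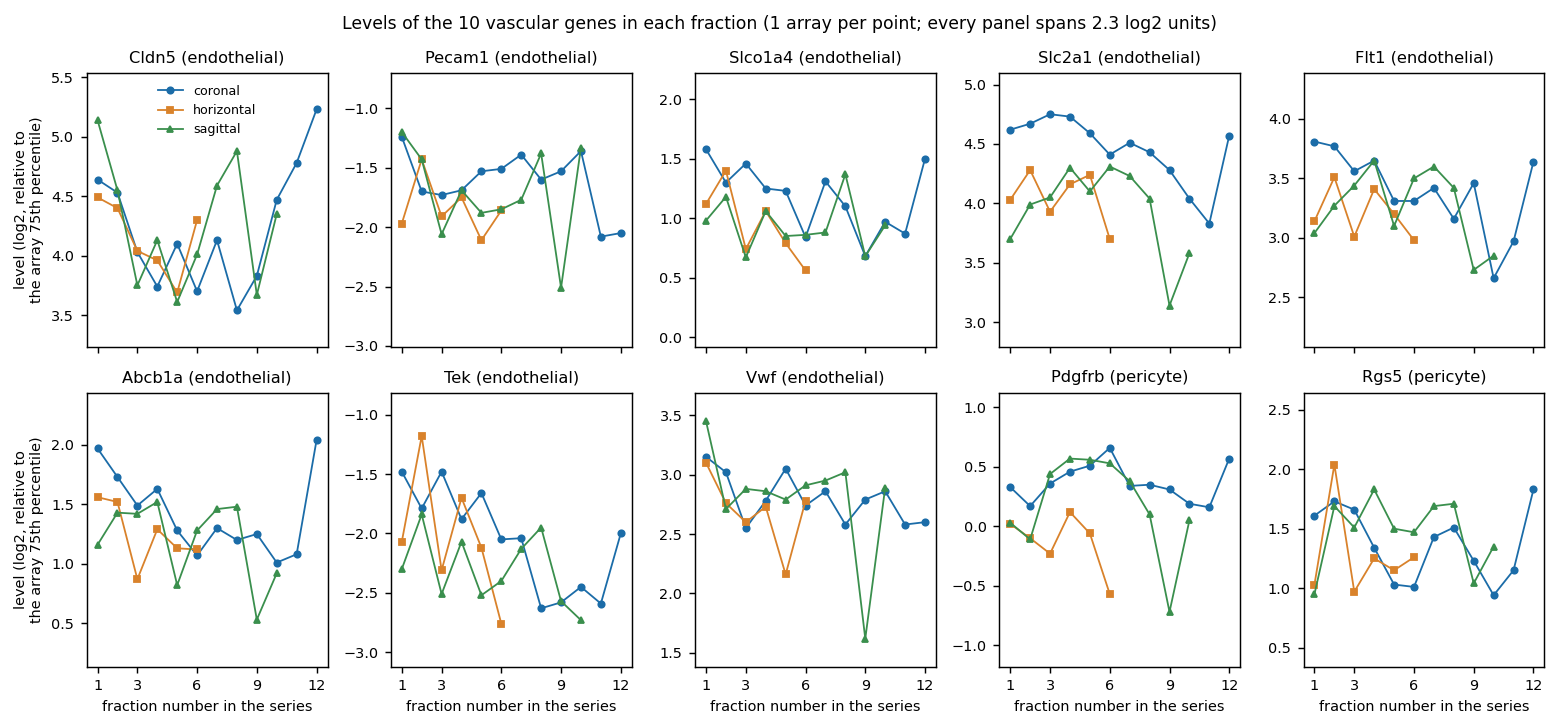
Level of each gene (vertical axis, log2 relative to the array's 75th percentile) against the fraction number (horizontal axis) for the coronal, horizontal and sagittal series; each point is 1 array. Cldn5 reached 5.23 in coronal fraction 12, and sagittal fraction 9 was the lowest sagittal point for 6 of the 10 genes.

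All 10 genes were measurable in every fraction, and none of them was absent from any stretch of the brain. Over all 28 fractions the highest level of a gene lay between 1.02 (Slco1a4) and 1.83 (Vwf) log2 units above its lowest. The SD over fractions had a median of 0.331 over the 10 genes, beside 0.375 over the 21524 probes that were detected everywhere. The fractions of a series were also put in order of a gene's level. Of the 250 steps between neighbours in that order, 26 exceeded the residual SD of the smooth curve for that gene (0.144 to 0.506). The exact order of most neighbours is therefore not resolved. Sorting itself makes these steps small, so the count says nothing about a trend along a series.

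Cldn5 encodes claudin 5, the main tight junction protein of brain endothelium. Its level was 3.54 at the lowest, 4.11 at the median and 5.23 at the highest in the coronal series, a 3.23-fold span. Fractions 1 and 2 (4.64 and 4.53) and fractions 10, 11 and 12 (4.47, 4.78 and 5.23) were all above every fraction from 3 to 9, where levels stayed between 3.54 and 4.13. This grouping was picked after the values were seen, and how many of all probes separate so was not counted. The horizontal series ran from 3.69 through a median of 4.17 to 4.49, and the sagittal series from 3.61 through 4.24 to 5.14. The highest value was again in an end fraction, number 1 in both.

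Pecam1 encodes CD31, an adhesion molecule of endothelial contacts. Its lowest, median and highest levels were -2.08, -1.57 and -1.24 in the coronal series, -2.11, -1.89 and -1.43 in the horizontal series and -2.51, -1.73 and -1.20 in the sagittal series. Coronal fractions 11 and 12 (-2.08 and -2.05) were the lowest of that series for Pecam1, the fractions in which Cldn5 was highest.

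Among the transporters, Slc2a1 encodes GLUT1, which carries glucose across the barrier. It ranged from 3.83 through 4.54 to 4.75 in the coronal series, from 3.70 through 4.09 to 4.28 in the horizontal series and from 3.14 through 4.05 to 4.31 in the sagittal series. The coronal values were highest in fractions 3 and 4 (4.75 and 4.73) and lowest in fraction 11. Slco1a4 encodes an organic anion transporter of brain endothelium, and its levels were 0.68, 1.24 and 1.58 at the lowest, median and highest in the coronal series. In the horizontal series they were 0.56, 0.92 and 1.40, and in the sagittal series 0.67, 0.91 and 1.37. Abcb1a encodes P-glycoprotein, the efflux pump of the barrier. Its coronal levels were 1.01, 1.29 and 2.04, its horizontal levels 0.87, 1.21 and 1.56, and its sagittal levels 0.53, 1.35 and 1.52. Fractions 12 and 1 (2.04 and 1.97) were the highest coronal values of Abcb1a. The close relative Abcb1b shares much of the coding sequence, and cross-hybridisation of the probe was not tested.

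Of the receptors, Flt1 binds VEGF and Tek binds angiopoietins. Flt1 ran from 2.66 through 3.44 to 3.81 in the coronal series, from 2.98 through 3.17 to 3.51 in the horizontal series and from 2.73 through 3.34 to 3.65 in the sagittal series. Tek levels were -2.63, -2.02 and -1.48 in the coronal series, -2.76, -2.09 and -1.18 in the horizontal series and -2.73, -2.35 and -1.84 in the sagittal series. Coronal fractions 1 to 5 held Tek at -1.88 or above, while fractions 6 to 11 held it at -2.04 or below, with no overlap between these stretches. Vwf encodes von Willebrand factor, which endothelial cells store and release for platelet adhesion. It spanned 2.55 to 3.15 in the coronal series (median 2.79), 2.16 to 3.10 in the horizontal series (median 2.75) and 1.62 to 3.45 in the sagittal series (median 2.88). The sagittal low was fraction 9 alone, and the next value was 2.71.

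Of the pericyte genes, Pdgfrb encodes the receptor for PDGF-B and Rgs5 a regulator of G-protein signalling enriched in pericytes. Pdgfrb had the narrowest coronal span of the 10 genes, from 0.16 through 0.34 to 0.66. It ran from -0.57 through -0.08 to 0.12 in the horizontal series and from -0.72 through 0.24 to 0.57 in the sagittal series. Rgs5 ran from 0.94 through 1.38 to 1.83 in the coronal series, from 0.97 through 1.20 to 2.04 in the horizontal series and from 0.95 through 1.51 to 1.83 in the sagittal series. Its horizontal maximum was 1 fraction, number 2, with the other 5 between 0.97 and 1.26.

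Position along each brain was tested by fitting a smooth curve to every tested probe and asking with limma's F-test, adjusted by Benjamini-Hochberg over 32364 probes, whether the curve was flat. Along the coronal series Cldn5 and Tek changed with position. Cldn5 had a fitted range of 1.51 log2 units with its high end at fraction 12 and its low at fraction 7 (adjusted p = 0.00676). Tek had a fitted range of 0.97, high at fraction 3 and low at fraction 9 (adjusted p = 0.0088). These were 2 of 10 members, while 33.7% of all tested probes passed the same test, so the members did not pass it more often than probes in general. At an unadjusted p under 0.05 the count was 5 of 10, beside 47.3% of all probes, the others being Pecam1 (adjusted p = 0.0992), Slc2a1 (0.101) and Abcb1a (0.0657). The median fitted range over the 10 members was 0.635, beside 0.897 over all tested probes and 0.759 over those detected everywhere.

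Slides and position overlap along the coronal series, so their parts cannot be told apart there. With the slide as an added term the adjusted p was 0.511 for Cldn5 and 0.161 for Tek, with fitted ranges of 1.53 and 1.11, and 241 of all 32364 probes (0.745%) passed. Within fractions 3 to 10, which share 1 slide, the range was 0.62 for Cldn5 (adjusted p = 0.488) and 0.93 for Tek (adjusted p = 0.0652), and 4164 of all probes (12.9%) passed. That stretch leaves out 4 of the 5 fractions in which Cldn5 was highest. The Tek call was also lost with another background correction (normexp, range 0.55, adjusted p = 0.0756), with which 39.3% of all probes passed. Without fraction 12, 5 members passed: Cldn5, Tek, Slc2a1 (0.0119), Flt1 (0.0437) and Abcb1a (0.0186), the values being adjusted p, while 10606 of all probes (32.8%) did.

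**Figure D2:**
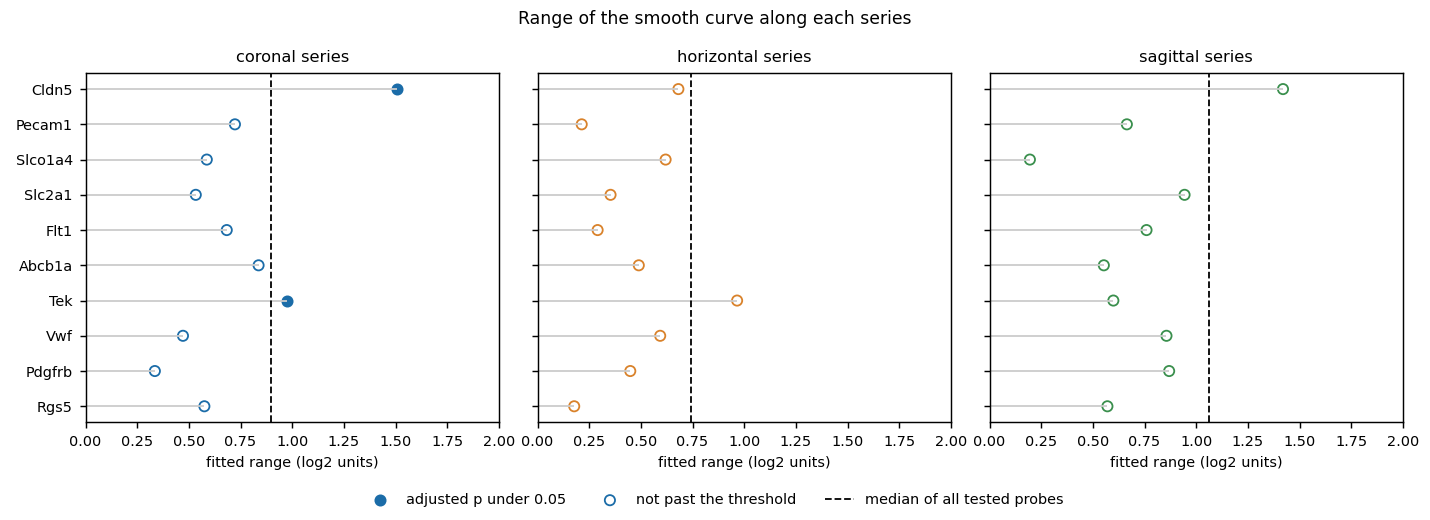
Fitted range of each gene (horizontal axis, log2 units) along the 3 series; filled points passed the test at an adjusted p under 0.05 and the dashed line is the median over all tested probes. Cldn5 (1.51) and Tek (0.97) are the filled points, both in the coronal series.

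No member passed along the horizontal or the sagittal series. The counts were 0 of 10 in both with limma, while 15.8% of all probes passed in the horizontal and 14.7% in the sagittal series. These shares depend on single fractions: 0 of all probes passed without horizontal fraction 3 or 4, and 0 without sagittal fraction 1. At an unadjusted p under 0.05 the counts were also 0 of 10, beside 37.1% and 32.9% of all probes. The largest fitted ranges that did not pass were 0.97 for Tek along the horizontal series (adjusted p = 0.329) and 1.42 for Cldn5 along the sagittal series (adjusted p = 0.19). The median range over the members was 0.469 in the horizontal and 0.712 in the sagittal series. It was 0.744 and 1.06 over all probes, and 0.603 and 0.882 over those detected everywhere. Centring each array on its median instead of its 75th percentile made 5 members pass in the horizontal series (Slco1a4, Slc2a1, Flt1, Tek and Pdgfrb), a setting in which 19347 of the 32364 probes (59.8%) passed. The distance between the 75th percentile and the median of an array ran from 2.53 to 4.14 log2 units, so that centring shifts all bright genes of an array together.

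In 3 fractions all 10 genes lay on the same side of their series mean. In sagittal fraction 9 all 10 genes were below their sagittal mean, the 8 endothelial genes by a mean of 0.64 (-0.64) and the 2 pericyte genes by 0.67 (-0.67). The array-wide shift of the detected probes in that fraction was -0.40, and its part in the low vascular values was not tested further. In horizontal fraction 2 all 10 genes were above their horizontal mean, by a mean of 0.36 (endothelial) and 0.40 (pericyte), and 6 of the 10 had their highest horizontal level there. The detected probes on that array had a median of 0.07 above theirs. In horizontal fraction 3 none of the 10 was above the horizontal mean, with a mean of -0.18 over the endothelial and -0.20 over the pericyte genes, while the detected probes had a median of 0.04. Coronal fraction 1 held the highest coronal level of 5 genes and fraction 12 that of 3 (Cldn5, Abcb1a and Rgs5).

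The sagittal series crosses the brain from one side to the other, so fraction 1 was set against fraction 10, 2 against 9 and so on, which gives 5 mirror pairs. No member passed between the sides in limma's paired fit, nor did any of the 32364 probes (0% passed, and 4.35% of the probes but no member had an unadjusted p under 0.05). The estimates lay between -0.26 (Vwf, 95% confidence interval -0.85 to 0.33) and 0.07 (Cldn5, -0.71 to 0.85). The pairs also give an SD of a single fraction, which mixes position with error because paired fractions were not alike in makeup: the oligodendrocyte list stood at -2.86 in fraction 1 and -0.31 in fraction 10, around its series mean. That SD was 0.22 for Flt1, 0.23 for Pdgfrb and 0.25 for Rgs5 at the low end, and 0.41 for Pecam1 and 0.55 for Cldn5 at the high end.

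The 3 brains were then compared by the mean over fractions of each series, with limma over all 28 arrays. No member passed in any of the 3 comparisons. The whole-array shares were 3.47% for the horizontal against the coronal series, 0.139% for the sagittal against the coronal series and 0.0154% for the sagittal against the horizontal series. With 1 fraction left out, the counts behind them ran from 87 to 2843 probes (1122 in the main fit), from 16 to 147 (45) and from 1 to 1319 (5). The 2843 and the 1319 were both without sagittal fraction 9. At an unadjusted p under 0.05 the members were Slc2a1 and Pdgfrb in the first comparison, Slc2a1 in the second and Pdgfrb in the last, beside 16.3%, 12.7% and 6.42% of all probes. Pdgfrb had a difference of -0.50 (SE 0.149) in the horizontal against the coronal series, with an adjusted p of 0.0563. Slc2a1 had a difference of -0.40 (SE 0.157, adjusted p = 0.171) there and of -0.51 (SE 0.135, adjusted p = 0.115) in the sagittal against the coronal series. Without sagittal fraction 9, the difference of Pdgfrb was the same, its SE 0.118 and its adjusted p 0.00696, and 2843 of all probes passed instead of 1122. Without horizontal fraction 6, 1 or 5 that count fell to 87, 263 or 371, and no member passed.

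The intervals bound these differences and do not show that the brains were alike. For Cldn5 the 95% interval of the horizontal minus the coronal mean ran from -0.57 to 0.40, and for Vwf from -0.46 to 0.24. In the same comparison genes of red blood cells moved a great deal. All 7 tested erythroid genes rose in the horizontal series, among them Alas2, the first enzyme of erythroid haem synthesis (2.22, SE 0.395, adjusted p = 0.00498), and Hba-a1, an alpha globin (2.19, SE 0.402, adjusted p = 0.00696). With the slide as a random block, none of the 7 erythroid genes passed (0.80 to 2.03, adjusted p from 0.12 to 0.328), all 7 had an unadjusted p under 0.05, and 9 of all probes passed instead of 1122. Across the 8 endothelial genes the differences in that comparison ran from -0.40 (Slc2a1) to 0.03 (Tek).

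**Figure D3:**
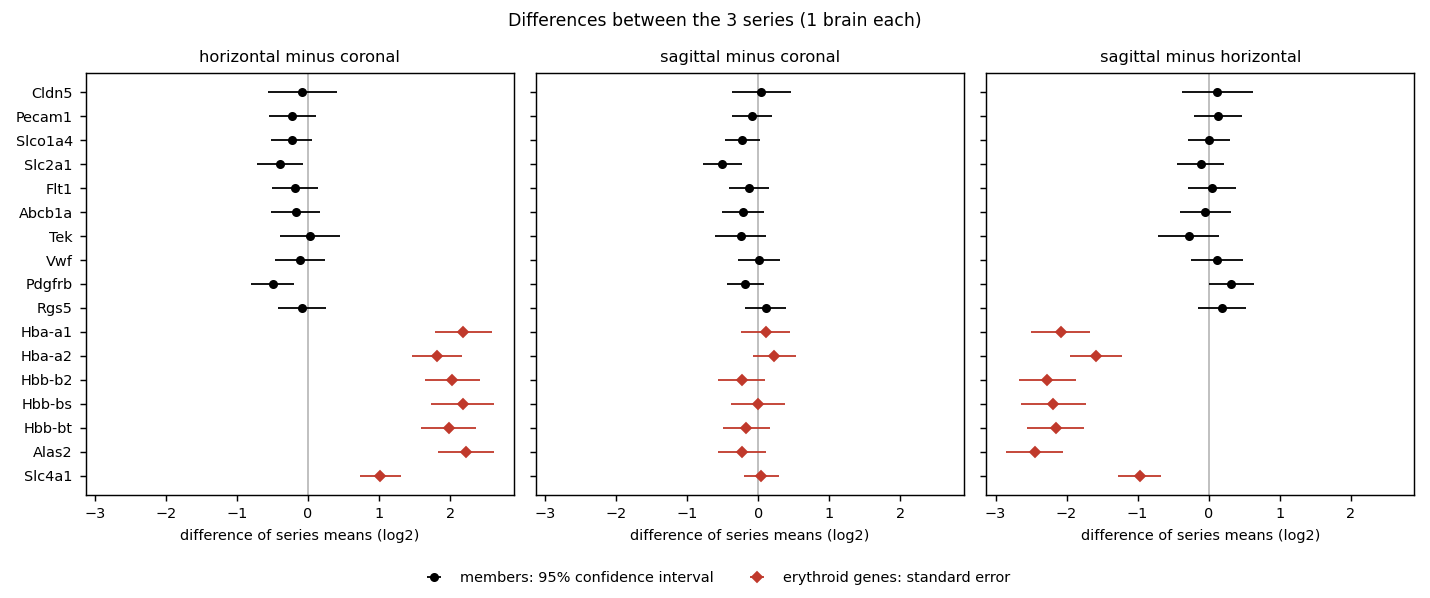
Difference of series means (horizontal axis, log2) for the 10 members with 95% confidence intervals and for 7 erythroid genes with standard errors. The erythroid genes lie between 1.02 and 2.22 in the horizontal minus coronal panel, while the members lie between -0.50 and 0.03.

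Whether the vascular genes vary together was measured by correlating all 45 pairs of members over the 28 fractions, after each gene was centred in each series. The permutation p comes from 100000 shuffles within series, and the adjusted p from Benjamini-Hochberg over the 45 pairs. Because adjacent fractions resemble each other, the true p may be larger. Of the 45 pairs 22 passed, all with positive r, and 43 of 45 had a positive r. The median r was 0.427, while the mean over all pairs of the 21524 probes detected everywhere was 0.0489. By kind, 15 of 28 endothelial pairs passed (median r 0.465) and 7 of 16 pairs of an endothelial with a pericyte gene (median r 0.411). Scaling instead on the median of the probes detected everywhere gave those probes the same median on every array. With it, 16 pairs passed and the median r was 0.285.

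The closest pair was Slc2a1 and Flt1, with r = 0.849 and rho = 0.832 (permutation p = 1e-05 for r, the smallest the shuffles can give, adjusted p = 0.00015). Its r was 0.815, 0.839 and 0.911 in the coronal, horizontal and sagittal series alone, 0.832 without the 2 farthest fractions (sagittal 9 and coronal 11) and 0.877 when also centred by slide. Flt1 and Abcb1a had r = 0.830 and rho = 0.834 (permutation p = 1e-05, adjusted p = 0.00015). Without the 2 fractions farthest for Flt1 (coronal 10 and sagittal 9), r was 0.800. Slco1a4 and Tek had r = 0.819 and rho = 0.812 (permutation p = 1e-05, adjusted p = 0.00015). Without the 2 fractions farthest for Slco1a4 (coronal 9 and horizontal 2), r was 0.772. A group of Slco1a4, Slc2a1, Flt1, Abcb1a, Tek and Rgs5 had r from 0.527 to 0.849 over its 15 pairs. This group was picked out after the values were seen, and its range is a description only.

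Cldn5 passed with Abcb1a (r = 0.493, rho = 0.510, adjusted permutation p = 0.0269), Slco1a4 (r = 0.477, rho = 0.490, adjusted permutation p = 0.0264) and Vwf (r = 0.465, rho = 0.492, adjusted permutation p = 0.0265). It had r = -0.08 with Slc2a1 (rho -0.10, permutation p = 0.709, adjusted p = 0.709) and r = 0.10 with Flt1 (rho 0.17, permutation p = 0.649, adjusted p = 0.679). The 2 pericyte genes had r = 0.261 with each other (adjusted permutation p = 0.259), lower than the r of 0.748 between Pdgfrb and Slc2a1 or of 0.723 between Rgs5 and Flt1. Rgs5 also passed with Abcb1a, Slco1a4, Slc2a1 and Tek. The difference between these correlations was not tested. Pecam1 passed with 1 other member, Vwf (r = 0.694, rho = 0.470, adjusted permutation p = 0.0012). That r was 0.431 without the 2 fractions farthest for Pecam1 (sagittal 9 and sagittal 1).

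**Figure D4:**
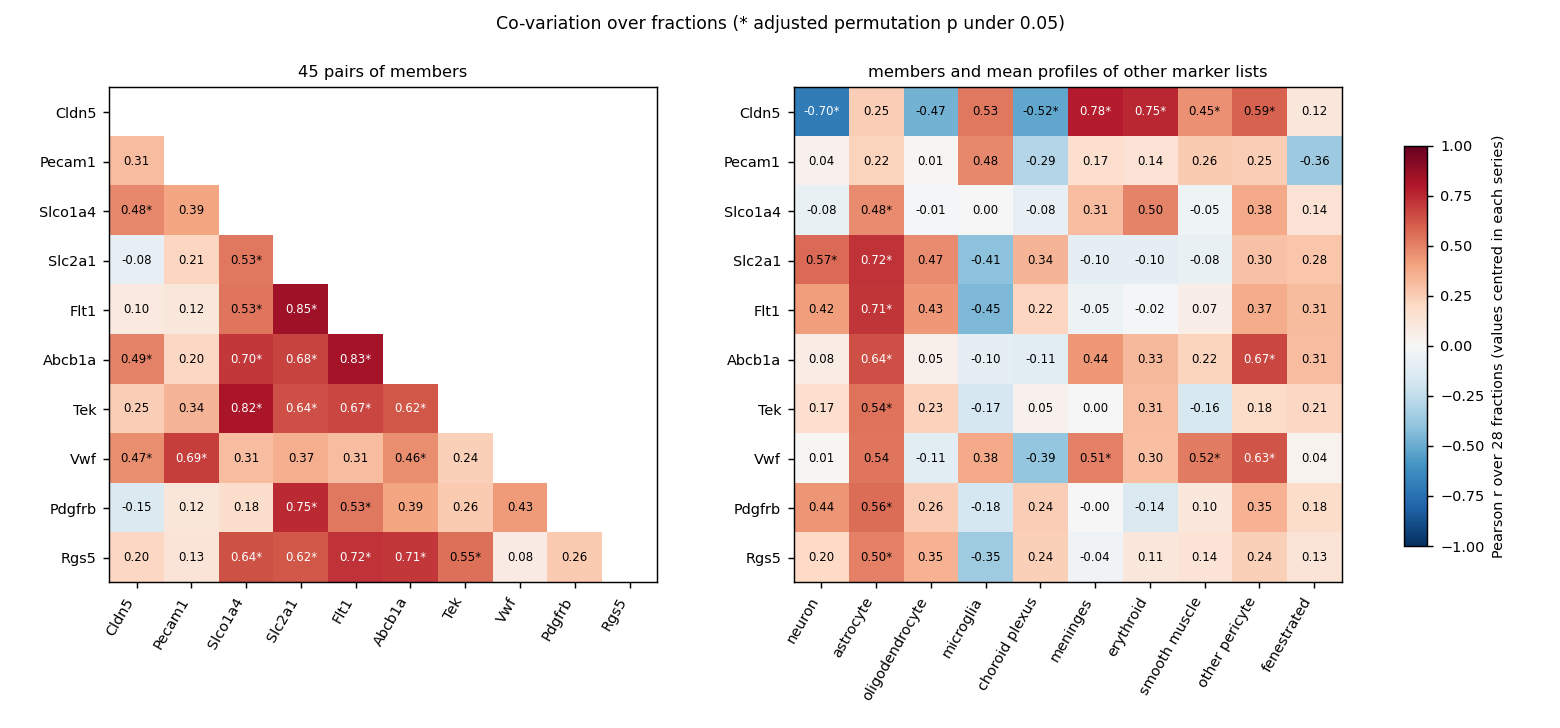
Pearson r over the 28 fractions, centred in each series, for the 45 pairs of members (left) and for the members against the mean profile of 10 marker lists of other cells (right); an asterisk marks an adjusted permutation p under 0.05. The highest cell on the left is Slc2a1 with Flt1 (0.85) and on the right Cldn5 with the meninges list (0.78).

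Each member was also ranked against all other probes detected everywhere by Pearson r over the 28 uncentred fractions, and the 3 named genes with the highest r are given as a description. Flt1 was closest to Robo4 (r = 0.888) and Ptprb (0.838), both endothelial receptors, and to Ttyh1 (0.838). Slco1a4 was closest to Sox17, an endothelial transcription factor (0.795), to Abcb1b (0.784) and to Tek (0.782). Slc2a1 was closest to Clcc1 (0.916), to Gja1, the connexin of astrocytes (0.915), and to Itih5 (0.902). Abcb1a was closest to Flt1 (0.835), Slc35f2 (0.820) and Ttyh1 (0.811), and Tek to Slco1a4 (0.782), 5730455P16Rik (0.777) and Faim (0.768).

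Pdgfrb was closest to Slc30a1 (0.882), Lrsam1 (0.879) and Col4a1, a basement membrane collagen (0.879). Rgs5 had no partner above 0.756, its 3 closest being Rell1 (0.756), Dennd10 (0.741) and Bnip3l (0.728). Vwf was closest to Prodh (0.816), Nr1h2 (0.797) and Aldh1l1 (0.792), and Pecam1 to Serpinb6a (0.833), Serpinb6c (0.817) and Coq9 (0.812). Cldn5 was closest to Eva1b (0.919), Wfdc1 (0.911) and Ifi30 (0.910), and 46 probes exceeded an r of 0.85 with it, beside 39 for Slc2a1, 16 for Pdgfrb, 3 for Flt1 and 0 for the other 6 members.

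Because a fraction mixes all brain cells, the members were set against the mean profiles of 10 marker lists of other cells, 100 relations in all, a comparison added after the values were seen. Of these 18 passed at an adjusted permutation p under 0.05. Whether other probes pass with these lists as often was not tested, so the counts do not set the members apart from genes in general. Cldn5 followed the 9 genes of the meninges list, collagens and other genes of the fibroblasts that cover the brain, with r = 0.782 and rho = 0.743 (permutation p = 1e-05, adjusted p = 0.000667). It also followed the 7 erythroid genes, with r = 0.751 and rho = 0.742 (permutation p = 2e-05, adjusted p = 0.000667).

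The first of these relations held in each series, with r = 0.835, 0.760 and 0.791 in the coronal, horizontal and sagittal series. It was 0.658 within coronal fractions 3 to 10 on 1 slide and 0.738 without the 2 farthest fractions (coronal 12 and horizontal 1), and it ran from 0.706 to 0.848 over the alternative settings of scaling and centring. The relation to the erythroid list was 0.740, 0.826 and 0.821 in the 3 series, 0.694 on that slide and 0.806 without coronal fractions 3 and 8. Along the coronal series the meninges list ran from -0.62 to 1.11 around its mean and the erythroid list from -1.25 to 1.22. In coronal fraction 12 the meninges list was at its maximum and Cldn5 was at its maximum, and 6 of the 9 meninges genes changed along the coronal series, beside 33.7% of all probes, including Dcn (range 2.25, adjusted p = 0.0112) and Slc6a13 (2.19, adjusted p = 0.0137). With the slide as an added term 0 of the 9 passed, beside 0.745% of all probes. All 9 meninges genes and all 7 erythroid genes were well above background in the coronal series, and their part in the Cldn5 values was not tested. Cldn5 had a negative relation to the neuron list (r = -0.702, rho -0.601, permutation p = 0.00011, adjusted p = 0.0022), whose sign turned when arrays were centred on their median (r = 0.266). Slc2a1 passed with the neuron list in the other direction (r = 0.568, rho 0.549, permutation p = 0.00265, adjusted p = 0.0241). On the median of always detected probes its r was 0.457 (adjusted p = 0.102). Of the remaining relations that passed, Cldn5 had r = -0.52 with the choroid plexus list (rho -0.47, adjusted permutation p = 0.0379) and 0.454 with the smooth muscle list (rho 0.441, adjusted permutation p = 0.0473), and Vwf had 0.517 with the smooth muscle list (rho 0.456, adjusted permutation p = 0.0425). Each of these 3 missed the threshold under 2 or more of the other settings of scaling and centring.

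**Figure D5:**
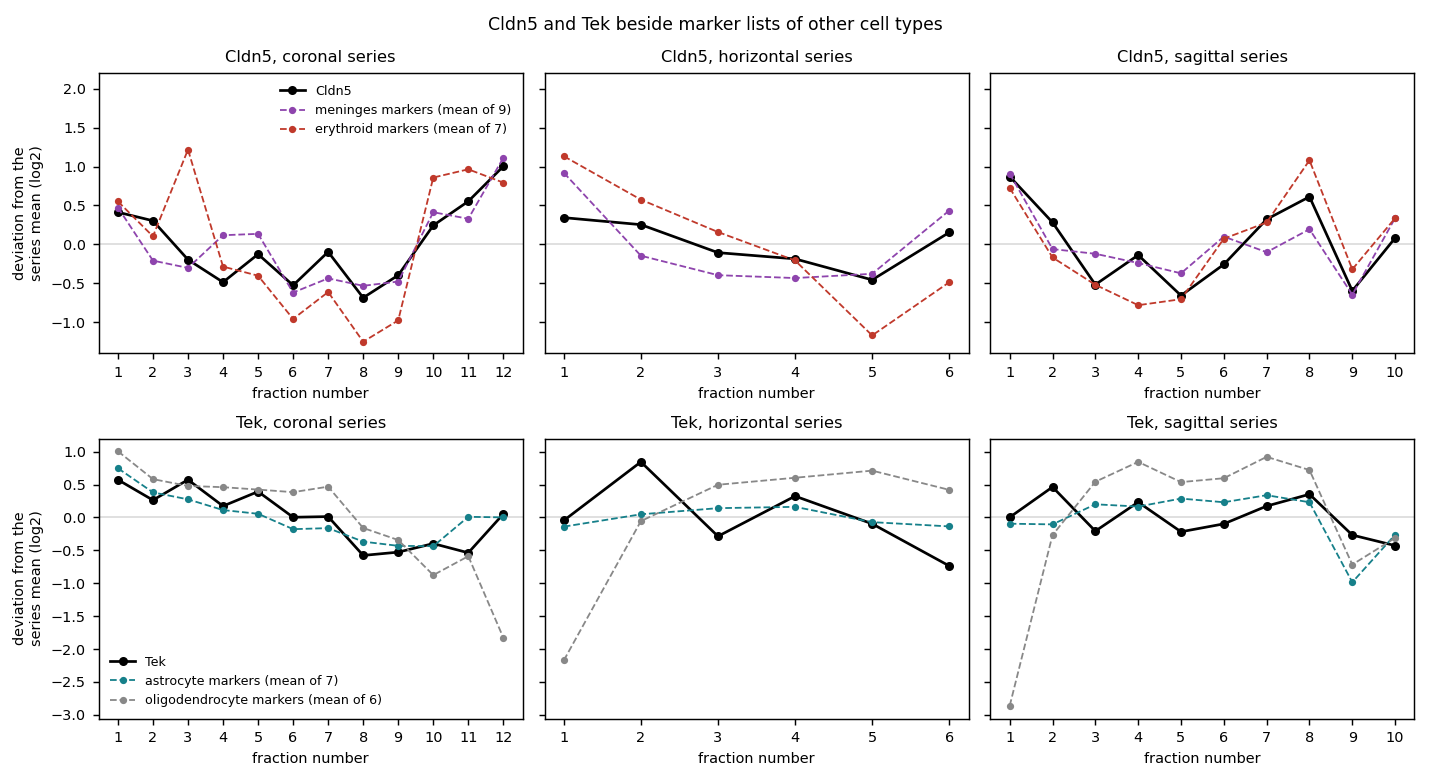
Deviation from the series mean (vertical axis, log2) by fraction number for Cldn5 with the mean of the meninges and erythroid lists (top) and for Tek with the mean of the astrocyte and oligodendrocyte lists (bottom). Cldn5 and the meninges list both peak in coronal fraction 12 and sagittal fraction 1, and in the coronal series Tek is lowest in fraction 8 and the astrocyte list in fraction 10.

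Vwf also passed with the meninges list (r = 0.507, rho 0.553, adjusted permutation p = 0.0425). The call was lost with the normexp background (r = 0.398, adjusted p = 0.112). It was also lost on the median of always detected probes, where r stayed about as large (0.480, adjusted p = 0.064). Of the 10 members 7 passed with the astrocyte list (7 genes such as Aqp4, the water channel of the end-feet), all with positive r. The share of all probes that would pass with this list was not measured. On the median of always detected probes 3 of the 7 calls were left (Slc2a1, Flt1 and Abcb1a), and the count ran from 5 to 10 over the other settings of scaling and centring. No member passed by Pearson's r with the oligodendrocyte, microglia or fenestrated vessel list, although some did under other scalings. By rank, Slc2a1 (rho 0.681, adjusted permutation p = 0.00283) and Flt1 (rho 0.619, adjusted permutation p = 0.009) passed with the oligodendrocyte list, and Cldn5 (rho 0.554), Pecam1 (0.521) and Slc2a1 (-0.57) with the microglia list. Slc2a1 had r = 0.722 with the astrocyte list (rho 0.738, permutation p = 9e-05, adjusted p = 0.0022), with r of 0.541, 0.336 and 0.933 in the coronal, horizontal and sagittal series, and Flt1 had r = 0.714 (rho 0.688, permutation p = 2e-05, adjusted p = 0.000667). Tek had r = 0.540 (rho 0.545, permutation p = 0.00083, adjusted p = 0.00922). Its r was 0.814 in the coronal series and 0.136 over all fractions with the normexp background. Without sagittal fraction 9 and coronal fraction 1, the 2 farthest for this list, r was 0.635 for Slc2a1, 0.645 for Flt1 and 0.524 for Tek, and 0.357 to 0.444 for Slco1a4, Pdgfrb, Rgs5 and Abcb1a. With the list of 12 other pericyte genes 3 members passed: Vwf with r = 0.631 (rho 0.671, permutation p = 0.00131, adjusted p = 0.0131), Abcb1a with r = 0.671 (rho 0.649, permutation p = 0.00022, adjusted p = 0.00367) and Cldn5 with r = 0.590 (rho 0.511, permutation p = 0.00055, adjusted p = 0.00775). With the normexp background r was 0.347 for Vwf (adjusted p = 0.22) and 0.382 for Abcb1a (adjusted p = 0.16), while Cldn5 passed with r = 0.710. Vwf also missed the threshold on the median of always detected probes (r = 0.427, adjusted p = 0.102). Cldn5 missed it with quantile normalization (r = 0.458, adjusted p = 0.0567) and when centred by slide (r = 0.522, adjusted p = 0.0503). Pdgfrb and Rgs5 themselves had r of 0.35 and 0.24 with that list, which did not pass.

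The rest of the vascular programme was described from 10 lists of 92 tested genes in all. Along the coronal series 31 of the 92 changed (33.7%), the same share as over all probes, and with the slide as an added term none of the 92 did. Of the 31, 14 had their fitted high end at fraction 12 and 11 at fraction 1. The share of all passing probes with a high end there was not counted, so this does not set the vascular genes apart. Junction genes gave 4 of 8. Among them, Jam2 (range 1.46, adjusted p = 0.00162) and Lsr (0.75, adjusted p = 0.0176) were highest at fraction 12 as Cldn5 was, whereas Ocln (1.23, adjusted p = 0.00994) had its fitted high end at fraction 1. Transporters gave 3 of 11, with Slc16a1, a monocarboxylate carrier, low at fraction 1 (1.24, adjusted p = 0.0428) and Mfsd2a, a lipid carrier of the barrier, high there (0.97, adjusted p = 0.0161).

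Among 22 other endothelial signalling genes 6 changed, with the largest ranges for Cd34 (1.41), Ramp2 (1.07) and Notch4 (0.99). Of 6 ligands of the vessel receptors 2 changed, Pdgfb, the ligand of Pdgfrb (1.32, adjusted p = 0.00617), and Pgf, a ligand of Flt1 (1.13, adjusted p = 0.0208). Pdgfb was fitted low at fraction 1 and high at fraction 8. Neither receptor passed along that series. The Wnt genes that set up the barrier gave 4 of 13. Wnt7a, a ligand made by neural cells, spanned 3.58 (adjusted p = 0.00255), Apcdd1 2.13 (adjusted p = 0.00305), Ndp, encoding norrin, 1.40 (adjusted p = 0.00348) and Ctnnb1, encoding beta-catenin, 0.55 (adjusted p = 0.0404).

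Other pericyte genes gave 3 of 12, and Vtn (1.97, adjusted p = 0.00131), Anpep (1.39, adjusted p = 0.0184) and Higd1b (0.87, adjusted p = 0.0169) all had their fitted high end at fraction 12. Smooth muscle genes gave 2 of 6, Cnn1 (1.53) and Myl9 (1.16), and arterial genes 2 of 6, Efnb2 (1.31) and Vegfc (1.21). Venous genes gave 3 of 5: Ephb4 (1.30) and Slc38a5 (0.91) had their fitted high end at fraction 12, and Ackr1 (1.80) had its fitted low there. Genes of fenestrated vessels, which lack a barrier, gave 2 of 3, with Plvap high at fraction 1 (1.12, adjusted p = 0.00116) and Esm1 at fraction 12 (2.36, adjusted p = 0.0117). In the horizontal series 7 of the 92 passed (7.61%, beside 15.8% of all probes) and in the sagittal series 3 (3.26%, beside 14.7%). None of the 92 passed in a comparison of series with limma, beside 3.47%, 0.139% and 0.0154% of all probes. At an unadjusted p under 0.05 the counts were 16, 11 and 9 of the 92, beside 16.3%, 12.7% and 6.42% of all probes.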

How the data were processed

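Total RNA of 28 brain fractions was labelled with Cy3 and hybridised to 1-colour Agilent mouse arrays, 1 array per fraction. The deposited files hold background-subtracted spot intensity from Feature Extraction 10.5.1.1, per the file headers. The authors also deposited a table of log2 values for 44721 probes, and 99.8% of those values matched the log2 signal after removal of the array's 75th percentile (within 1e-05 after an offset per array). Here, outlier spots were left out (108 to 176 per array), spots of a probe were averaged, and the 75th percentile of log2 signal was subtracted. Of 55681 probes 48.9% were named through RefSeq accessions (assembly GRCm38.p6, used for names and promoter sequences; the files' own intervals are on another build). Tested were 32364 probes that every series detected in 1 fraction or more, detection meaning that 0.5 or more of a probe's spots were flagged as well above background; 62 detected probes that had lost every spot on some array were left out. Each gene was represented by its brightest probe on average.

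Trends were tested with limma 3.58.1 in R 4.3.3, by an F-test of a natural spline of the fraction number (3 degrees of freedom, 2 for the horizontal series). Series means were compared by limma contrasts and the sides of the sagittal series with the mirror pair as a block, all two-sided and adjusted by Benjamini-Hochberg over all tested probes at 0.05. A p-value compares fractions of these 3 brains, not mice. Correlations used two-sided permutation tests. The scripts were tested on simulated data. Genes named are the 10 members, the 3 genes closest to each member, for each list up to 3 past the threshold with the largest effect, and genes that define other cell types. Lsr, outside that rule, was named after its values were seen. The members and lists were chosen with earlier results of these data known. Alternatives were array-median, quantile and always-detected-median scaling, normexp background, the deposited values, other curves, slide and fraction-number blocks, and each fraction left out. The number of arrays limits the precision. Fraction width is not given because labels and study state different thicknesses.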

Additional observations from a re-analysis of the deposited data

Results flagged for a closer look

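The 3 values below stood far from the others of their series. In each of the 20 sets of 4 to 10 fractions (10 members in the horizontal and the sagittal series), the gap of the highest and of the lowest value to its neighbour was divided by the whole range and held against Dixon's 95% critical value, which chance exceeds in about 1 of 20 sets. Vwf was lowest in sagittal fraction 9, at 1.62, with a gap of 0.596 of the range and the next value at 2.71. Pdgfrb was lowest in the same fraction, at -0.72, with a gap of 0.471 of the range and the next value at -0.11. The detected probes of that array had a median of -0.40 and its dim probes one of 1.32 relative to their series means, and the part of this shift in both values was not tested. Rgs5 was highest in horizontal fraction 2, at 2.04, with a gap of 0.73 of the range and the next value at 1.26, and the detected probes of that array had a median of 0.07 relative to theirs.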

How the results depend on the processing

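For single members, 1733 of 1760 alternative values kept their side of the threshold, 5 lost a call and 22 gained one. Of the 1733, 1659 kept their direction, a count that includes the fitted ranges, which are always positive and cannot turn. The other 74 turned sign and belong to 17 of the 40 differences between series or sagittal sides, none of them past the threshold in either setting. The count of members with a coronal trend (2) was 1 with normexp background, 0 with slide as an added term (241 of all probes, of 10910) and 0 within the 1 slide of fractions 3 to 10 (4164 of all probes), and 2 to 5 when 1 fraction was left out (5 without fraction 12, with 10606 of all probes). With 1 spline degree of freedom fewer this count was 3, since Abcb1a passed as well (adjusted p = 0.0401), with 12455 of all probes. The horizontal count (0, with 5115 of all probes) was 5 on the array median and 0 with any fraction left out. The count over all probes then ran from 0 (without fraction 3 or 4) to 5754 (without fraction 5). With 1 spline degree of freedom fewer, 1 of all probes passed. Where almost no probe passed, a member count of 0 says nothing about the members. The sagittal count (0, with 4767 of all 32364 probes) was 1 with normexp (14295 of all probes) and 0 to 2 with a fraction left out (2 without fraction 9, Cldn5 and Slc2a1, with 12543 of all probes, and 2 without fraction 10, Slc2a1 and Pdgfrb, with 15244). Without fraction 1 the count over all probes was 0, and without 1 of fractions 2 to 8 it was 2020 to 3944. The horizontal against coronal count (0, with 1122 of all probes) was 1 on the median of always detected probes, a setting chosen after seeing the data (1021 of all probes), and 0 to 1 with a fraction left out (Pdgfrb without coronal 2, horizontal 4 or sagittal 9, with 1513, 1233 and 2843 of all probes). The lowest count over all probes was 87, without horizontal fraction 6. With the fraction number as a replicate block, 2 members and 1381 of all probes passed there (Slc2a1 -0.58, adjusted p = 0.0298; Pdgfrb -0.60, adjusted p = 0.0423), 1 member and 376 of all probes in the sagittal against coronal comparison (Slc2a1 -0.56, adjusted p = 0.0206; 45 of all probes without the block) and 0 members in the last; fractions of different mice and planes share only a number, so this pairing has no meaning in the design. For co-variation (22 pairs, median r 0.427), the array median gave 45 pairs and 0.805, and centring by slide 21 pairs. The coronal, horizontal and sagittal series alone gave 9, 0 and 4 pairs, with a median r of 0.28, 0.57 and 0.55. In the horizontal and sagittal series the lower counts thus came without a lower median r, and why fewer pairs passed there was not tested. For the marker lists (18 relations), the array median gave 75. Averaging all probes of a gene gave nothing further, since each member has 1. With 1 array per position the error comes from the curve alone, and a slide's own effect cannot be separated from position where a slide holds 1 stretch of a brain.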

Other observations

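Genes of red blood cells passed between the brains in the fit without slides. Besides the 7 of 7 erythroid genes that rose in the horizontal against the coronal series, 2 of 7 fell in the sagittal against the horizontal series, Alas2 (-2.45, SE 0.408, adjusted p = 0.0271) and Hbb-b2, a beta globin (-2.27, SE 0.406, adjusted p = 0.0385), by limma with Benjamini-Hochberg adjustment, beside 3.47% and 0.0154% of all probes. With the slide as a random block, an alternative chosen after seeing the data, none of the 7 passed in either comparison (for the latter -2.51 to -0.92, adjusted p from 0.434 to 1.00), and all 7 had an unadjusted p under 0.05 in both. In that fit 9 and 1 of all probes passed. None of the 7 passed between the sagittal and the coronal series, where their differences ran from -0.24 to 0.22. Along the coronal series 4 of the 7 changed, beside 33.7% of all probes, with Hba-a1 spanning 2.59 (adjusted p = 0.0172) and Alas2 2.42 (adjusted p = 0.0207), both with their lowest level in fraction 8, the fraction in which Cldn5 was also lowest. With the slide as an added term none of the 7 passed along that series.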
